A study of Drosophila melanogaster with 9 samples.

Results

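The genes described here make, package and recapture dopamine, serotonin and octopamine in *Drosophila melanogaster*: *ple*, *Ddc*, *Vmat*, *DAT*, *Trh*, *SerT*, *Tdc2* and *Tbh*. They were found by gene symbol among the probe sets of an Affymetrix expression array, where 7 of the 8 symbols were carried by 10 of 18769 probe sets. No probe set named *Trh*, the tryptophan hydroxylase of serotonin synthesis, so that gene was not analysed here. Of the 7 genes, 6 lay in the brighter 50% of all rows and were tested, and *ple* did not.

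RNA came from the complete central nervous system (CNS) of larvae in the third instar, at the wandering stage, 10 to 15 animals pooled per sample, grown at 25 °C, with 3 arrays a group and 500 ng of total RNA per labelling. The *Htl[ACT]* group was repoGal4>UAS-Htl[ACT], which expresses an activated form of the fibroblast growth factor receptor Heartless. The *InR* group was repoGal4>UAS-InR, which overexpresses the insulin receptor, and the control group was repoGal4/+. All 3 groups therefore carried the glial driver repo-Gal4, and the receptor transgenes were driven in glia, while the genes described here are known mainly from neurons. The design asked how a CNS enriched in glia differs from a control CNS.

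Dopamine is made from tyrosine in 2 steps, by tyrosine hydroxylase (*ple*) and then by dopa decarboxylase (*Ddc*), which also carries out the last step of serotonin synthesis. Octopamine is made from tyrosine through tyramine by the neuronal tyrosine decarboxylase *Tdc2* and tyramine beta-hydroxylase (*Tbh*). The vesicular monoamine transporter (*Vmat*) loads all of these amines into synaptic vesicles, and *DAT* and *SerT* return dopamine and serotonin to the nerve ending. In larvae, small sets of neurons in the brain and ventral nerve cord make each amine, and *Ddc* also serves the epidermis, where dopamine feeds the hardening and pigmentation of the cuticle.

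Values are MAS5 signals on a linear scale, each array having been scaled to the same trimmed mean by the authors' software. Signals of different probe sets are not comparable as transcript amounts, so only the groups are set against each other within a gene. Over all arrays the median signal lay between 31.5 and 41.8. With 3 arrays a group, precision is set by their number. A gene was called at an adjusted p of at most 0.05 (limma, Benjamini-Hochberg over 8552 rows) and a fold change of at least 1.5. Nothing in the labels says whether the triplicates came from separate crosses, so the p-values measure the spread between these samples, which may be partly technical.

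All 6 genes tested were lower in *Htl[ACT]* tissue than in control tissue and were called, against a background of 19.2% of rows called lower in that comparison. In *InR* tissue 2 of the 6, *Vmat* and *DAT*, were called lower against a background of 6.57%, and none was called higher. Between *Htl[ACT]* and *InR* tissue, *Ddc* and *DAT* were called lower in *Htl[ACT]* tissue against a background of 6.45%. The median log2 fold change of the 6 genes was -1.02 for *Htl[ACT]* against control, where the median of all rows was -0.15. It was -0.48 for *InR* against control, beside -0.09 for all rows, and -0.43 for *Htl[ACT]* against *InR*, beside -0.08. The *Htl[ACT]* and *InR* comparisons share the 3 control arrays and are therefore not independent of each other. Each labelling took 500 ng of RNA and each array was scaled to the same trimmed mean, so signals are shares of the whole CNS RNA. Fewer cells of a type, less RNA per cell and a smaller share beside added cells of other types cannot be told apart.

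**Figure D1:**
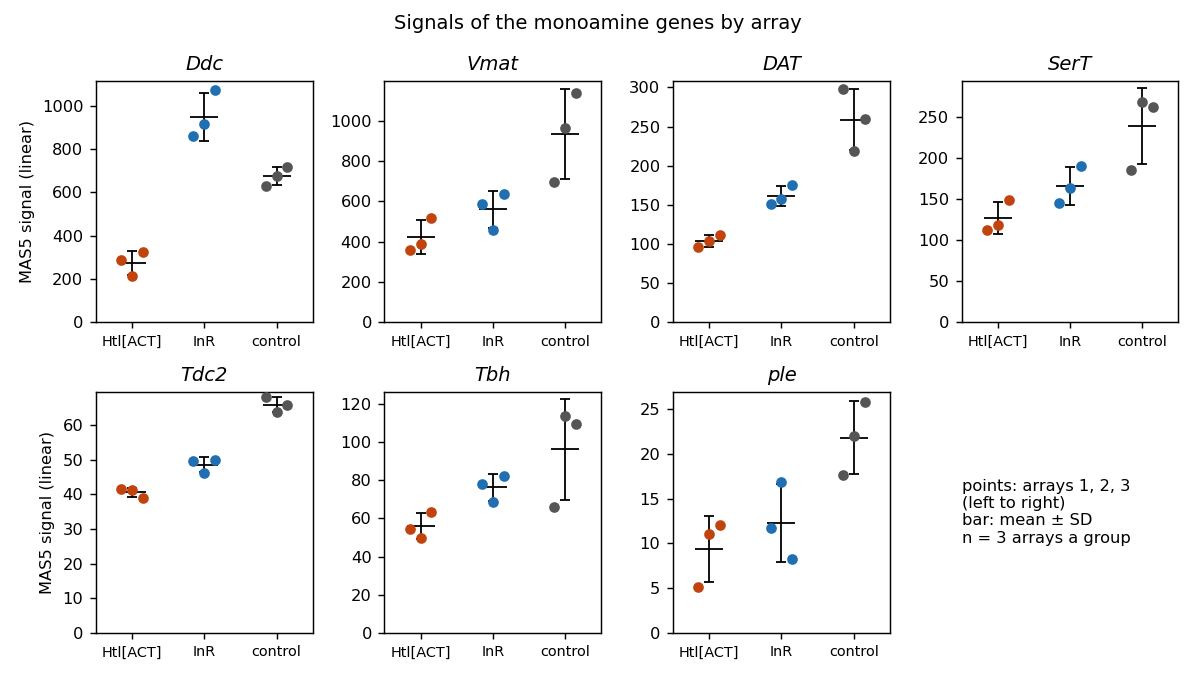
MAS5 signal (linear axis from 0) of the 7 genes found on the array, with a point for each array in the order 1, 2, 3 and a bar for the group mean ± SD (n = 3). In every panel the *Htl[ACT]* arrays lie below the control arrays, and only *Ddc* has its *InR* arrays above the control arrays.

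Synthesis of dopamine begins with *ple*, the rate-limiting tyrosine hydroxylase. Its signal was 5.14, 11.005 and 12.0 on the *Htl[ACT]* arrays, 11.8, 16.8 and 8.21 on the *InR* arrays, and 17.7, 21.9 and 25.8 on the control arrays. Every one of these values lies below the median signal of its array, although all control values were above all others. In a fit of all 17104 rows without the brightness filter, *ple* had a log2 fold change of -1.29 ± 0.39 (SE; limma adjusted p = 0.0595) for *Htl[ACT]* against control and -0.88 ± 0.39 (limma adjusted p = 0.236) for *InR* against control, neither past the threshold. At signals this dim the array gives little hold on the first step of the pathway.

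The second enzyme, *Ddc*, behaved differently in the 2 glial genotypes. Its signal was 285, 214 and 325 on the *Htl[ACT]* arrays, 861, 916 and 1072 on the *InR* arrays, and 631, 678 and 716 on the control arrays. The 3 groups did not overlap, with *Htl[ACT]* lowest and *InR* highest. The means were 275 ± 56.0 in *Htl[ACT]* tissue, 950 ± 110 in *InR* tissue and 675 ± 42.3 in control tissue (SD, n = 3 each). Against control, *Ddc* fell by 1.32 ± 0.16 on the log2 scale in *Htl[ACT]* tissue (SE; limma adjusted p = 0.000275). In *InR* tissue its log2 fold change was 0.49 ± 0.16 (limma adjusted p = 0.0405), with a 95% interval of 0.13 to 0.85, and at 1.40-fold it stayed under the fold limit and was not called. Set directly against *InR* tissue, *Htl[ACT]* tissue was lower by a log2 value of -1.80 ± 0.16 (limma adjusted p = 0.00019), and this call was made in 25 of 25 alternative settings. *amd*, a gene related to *Ddc*, had signals between 0.85 and 5.74 on all arrays.

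For octopamine, *Tdc2* makes tyramine in neurons. It had signals of 41.6, 41.1 and 38.9 on the *Htl[ACT]* arrays, 49.7, 46.1 and 49.9 on the *InR* arrays, and 68.2, 63.9 and 65.7 on the control arrays. These were the tightest replicates of the set, and the groups were fully separated in the order *Htl[ACT]*, *InR*, control. *Tdc2* fell by 0.70 ± 0.07 on the log2 scale in *Htl[ACT]* tissue (SE; limma adjusted p = 9.93e-05). Its log2 fold change in *InR* tissue was -0.44 ± 0.07 (limma adjusted p = 0.00209), smaller than the 1.5-fold limit and so not called. Between *Htl[ACT]* and *InR* tissue the difference was -0.26 ± 0.07 (limma adjusted p = 0.0257), likewise under the fold limit. With each array centred on its median, the *Htl[ACT]* value was -0.53, and after quantile normalization -0.50, both under the fold limit too.

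*Tbh* converts tyramine to octopamine. Its signals were 54.6, 49.95 and 63.4 on the *Htl[ACT]* arrays, 78.1, 68.4 and 82.3 on the *InR* arrays, and 65.8, 114 and 109 on the control arrays. The *Htl[ACT]* arrays lay below all others, while the first control array fell below every *InR* array. *Tbh* fell by 0.75 ± 0.21 on the log2 scale in *Htl[ACT]* tissue (SE; limma adjusted p = 0.0153), and its log2 fold change in *InR* tissue was -0.30 ± 0.21 (limma adjusted p = 0.292). The *Htl[ACT]* call was lost without control array 2 (limma adjusted p = 0.0525) or control array 3 (limma adjusted p = 0.0532). It was also lost under 6 of the other settings, and *Tbh* was the least stable of the 6 calls in that comparison.

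*Vmat*, which every monoamine neuron needs to fill its vesicles, was represented by 4 probe sets, of which the brightest, 1637393_at, was used for the gene. That probe set read 358, 388 and 517 on the *Htl[ACT]* arrays, 587, 458 and 638 on the *InR* arrays, and 698, 964 and 1142 on the control arrays. The control arrays lay above all others, and the *Htl[ACT]* and *InR* arrays overlapped. Means were 421 ± 84.6 in *Htl[ACT]* tissue, 561 ± 92.6 in *InR* tissue and 935 ± 223 in control tissue (SD, n = 3 each). *Vmat* fell by 1.14 ± 0.22 on the log2 scale in *Htl[ACT]* tissue (SE; limma adjusted p = 0.00263) and by 0.72 ± 0.22 in *InR* tissue (limma adjusted p = 0.0336). The difference between *Htl[ACT]* and *InR* tissue was -0.42 ± 0.22 (limma adjusted p = 0.196). The *InR* call was lost in 10 of 25 alternative settings, among them leaving out control array 2, control array 3, *InR* array 1 or *InR* array 2.

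The *Vmat* probe sets did not all move alike. The second bright one, 1636275_a_at, gave a log2 fold change of -0.81 ± 0.18 in *Htl[ACT]* tissue (SE; limma adjusted p = 0.0058, called) and -0.44 ± 0.18 in *InR* tissue (limma adjusted p = 0.0968) when every probe set was tested on its own. A much dimmer one, 1628739_at, averaged 65.0 on the *Htl[ACT]* arrays, 50.9 on the *InR* arrays and 42.2 on the control arrays, in the opposite order. Its log2 fold change in *Htl[ACT]* tissue was 0.61 ± 0.26 (limma adjusted p = 0.0804), not called. The remaining one, 1632856_s_at, averaged 10.7 on the *Htl[ACT]* arrays, 14.1 on the *InR* arrays and 33.7 on the control arrays and was too dim to be tested. Averaging the *Vmat* probe sets kept the *Htl[ACT]* call and lost the *InR* call. Flies splice *Vmat* into a neuronal form and a form known from glia of the visual system, and which of them each probe set reads was not examined.

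**Figure D2:**
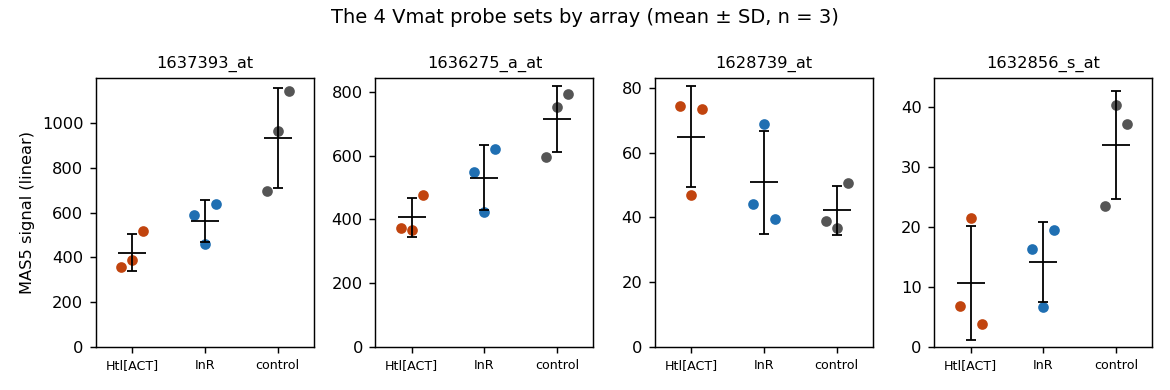
MAS5 signal (linear axis from 0) of the 4 *Vmat* probe sets by array, with bars for the group mean ± SD (n = 3). Both bright probe sets and the dimmest are lowest on average in *Htl[ACT]* tissue, whereas 1628739_at averages 65.0 in *Htl[ACT]* tissue and 42.2 in control tissue.

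Of the reuptake transporters, *DAT* separated the 3 groups most evenly. The dopamine transporter read 95.8, 104 and 112 on the *Htl[ACT]* arrays, 151, 157 and 175 on the *InR* arrays, and 298, 219 and 260 on the control arrays. No array of one group entered the range of another. *DAT* averaged 104 ± 8.06 in *Htl[ACT]* tissue, 161 ± 12.3 in *InR* tissue and 259 ± 39.1 in control tissue (SD, n = 3 each). It fell by 1.31 ± 0.12 on the log2 scale in *Htl[ACT]* tissue (SE; limma adjusted p = 9.14e-05) and by 0.68 ± 0.12 in *InR* tissue (limma adjusted p = 0.00459). The direct difference, *Htl[ACT]* against *InR*, was -0.63 ± 0.12 (limma adjusted p = 0.00828). Both of the smaller changes lay close to the fold limit, a log2 value of 0.58. The *InR* call was lost in 4 of 24 settings, which were SAM, neuron marker scaling, leaving out control array 1, where the value was -0.57, and leaving out control array 2 with *InR* arrays 2 and 3, and the direct call was lost in 7 of 24 settings, among them leaving out *Htl[ACT]* array 1 or *InR* array 3.

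*SerT*, which takes serotonin back up, read 113, 118 and 149 on the *Htl[ACT]* arrays, 145, 164 and 190 on the *InR* arrays, and 186, 268 and 263 on the control arrays. *Htl[ACT]* arrays lay below all control arrays, and the *InR* arrays overlapped both other groups. *SerT* fell by 0.91 ± 0.18 on the log2 scale in *Htl[ACT]* tissue (SE; limma adjusted p = 0.00301). In *InR* tissue its log2 fold change was -0.51 ± 0.18 (limma adjusted p = 0.0536), short of both the p limit and the fold limit. With a replicate block on all 9 arrays the limma adjusted p was 0.0124, and the value stayed under the fold limit. Without control array 1 the value was -0.69 and was called. The difference between *Htl[ACT]* and *InR* tissue was -0.39 ± 0.18 (limma adjusted p = 0.144).

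Apart from *Ddc*, each gene had its lowest mean in *Htl[ACT]* tissue, an intermediate mean in *InR* tissue and its highest mean in control tissue. The neighbours *Htl[ACT]* and *InR* were separated by a call only for *DAT*, and the neighbours *InR* and control only for *Vmat* and *DAT*. For *Ddc* the order was *Htl[ACT]*, control, *InR*, with a call between *Htl[ACT]* and control and none between *InR* and control.

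*Vmat*, *SerT* and *Tbh* also varied together among replicates, whereas *DAT* and *Tdc2* did not follow them. Over the 9 arrays the log2 signals of *Vmat* and *SerT* had a Pearson correlation of 0.95, and after each group's mean was taken away it was 0.80. The within-group correlation was 0.86 for *Vmat* and *Tbh* and 0.84 for *SerT* and *Tbh*. *DAT* and *Tdc2* correlated at 0.96 over all arrays but at 0.29 within groups, so most of that likeness lay in the group means. Within groups the correlation was negative for 7 of the 15 pairs, each of which involved *DAT* or *Tdc2*, down to -0.57 for *SerT* and *Tdc2*. *Htl[ACT]* array 3 had the highest *Htl[ACT]* signal for *Ddc*, *Vmat*, *DAT*, *SerT*, *Tbh* and *ple*, and control array 1 had the lowest control signal for each of these except *DAT*, where it was the highest. These correlations are descriptions over 9 arrays that share each array's scaling.

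Among all tested rows with a single gene, those whose pattern over the 9 arrays was most like that of each member were *Clic* and *Dad* for *Ddc* (Pearson r = 0.99 and 0.99), *Gycalpha99B* and *CG31221* for *Vmat* (0.99 and 0.98), and *CG17378* and *simj* for *DAT* (0.99 and 0.99). For *SerT* they were *CG6282* and *CG31221* (0.99 and 0.99). *CG13344* and *rtet* were closest to *Tdc2* (0.995 and 0.99), and *rdgC* and *Secp43* to *Tbh* (0.95 and 0.95).

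Enzymes that supply tetrahydrobiopterin, the cofactor of *ple*, and related synthesis genes were read as a group of their own. Of 9 such genes listed, 8 had a probe set and 6 were tested, and on the deposited scale none was called in any comparison. Over all rows, 13.0% were called higher and 19.2% lower in *Htl[ACT]* tissue, and 9.24% and 6.57% in *InR* tissue. Between *Htl[ACT]* and *InR* tissue the shares were 5.43% and 6.45%. Beside such shares, a count of 0 among 6 genes says little about the list. At an unadjusted p under 0.05, 4 passed in *Htl[ACT]* tissue, 0 in *InR* tissue and 3 between *Htl[ACT]* and *InR*, and SAM, the method the study used, called 0 in each. Their median log2 fold change was 0.36 in *Htl[ACT]* tissue and 0.10 in *InR* tissue. *Catsup*, known as a negative regulator of tyrosine hydroxylase, had a log2 fold change of 0.48 ± 0.09 in *Htl[ACT]* tissue (SE; limma adjusted p = 0.00194) and *pr*, an enzyme of pteridine synthesis, 0.38 ± 0.09 (limma adjusted p = 0.00715), both under the fold limit.

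Most of the amine receptors tested also fell in *Htl[ACT]* tissue. Of 17 receptors listed, 15 had a probe set and 9 were tested. Of these, 7 were called lower in *Htl[ACT]* tissue, beside 19.2% of all rows, and 2 in *InR* tissue, beside 6.57%. None was called higher on the deposited scale. The median of the 9 was -1.03 in *Htl[ACT]* tissue and -0.48 in *InR* tissue on the log2 scale. Dopamine receptors *Dop1R1* and *Dop2R* fell by 1.39 ± 0.34 (SE; limma adjusted p = 0.0089) and 0.85 ± 0.14 (limma adjusted p = 0.00119) in *Htl[ACT]* tissue. The *Dop2R* call was lost when its probe sets were averaged. In *InR* tissue *Dop1R1* had a log2 fold change of -0.62 ± 0.34 (limma adjusted p = 0.191), which was called when the replicate number entered as a block on the 6 *InR* and control arrays (limma adjusted p = 0.0347). The octopamine receptor *Octbeta1R* fell by 1.28 ± 0.20 in *Htl[ACT]* tissue (limma adjusted p = 0.001) and by 0.67 ± 0.20 in *InR* tissue (limma adjusted p = 0.0331). That *InR* call was lost in 8 of 23 settings, among them SAM and leaving out control array 2 or 3 or *InR* array 1 or 2. *Oct-TyrR*, which responds to octopamine and tyramine, fell by 1.03 ± 0.18 in *Htl[ACT]* tissue (limma adjusted p = 0.00147). *DopEcR* and *5-HT2A*, the 2 receptors not called in *Htl[ACT]* tissue, had log2 fold changes of -0.57 and -0.35.

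Among the serotonin receptors, *5-HT7* and *5-HT1B* were called in the direct comparison of *Htl[ACT]* with *InR*, beside 6.45% of all rows called lower there. *5-HT7* read 45.1, 89.1 and 50.7 on the *Htl[ACT]* arrays, 113, 131 and 106 on the *InR* arrays, and 122, 102 and 144 on the control arrays. The *InR* arrays thus overlapped the control arrays, and the *Htl[ACT]* arrays lay below both. It fell by 1.04 ± 0.25 on the log2 scale in *Htl[ACT]* tissue (SE; limma adjusted p = 0.0079), had a value of -0.06 ± 0.25 in *InR* tissue (limma adjusted p = 0.867), and differed directly between *Htl[ACT]* and *InR* tissue by -0.98 ± 0.25 (limma adjusted p = 0.0246). This direct call was lost in 10 of 23 settings, among them both other scalings, SAM and leaving out *Htl[ACT]* array 1 or 3 or *InR* array 1 or 2. *5-HT1B* fell in both genotypes, by 1.36 ± 0.18 in *Htl[ACT]* tissue (limma adjusted p = 0.000511) and by 0.74 ± 0.18 in *InR* tissue (limma adjusted p = 0.0163), the second call being lost in 7 of 22 settings, among them SAM and leaving out control array 1 or *InR* array 2 or 3. Its direct difference of -0.61 between *Htl[ACT]* and *InR* tissue was called in 3 of 22 alternative settings. *5-HT1A* fell by 0.68 ± 0.22 in *Htl[ACT]* tissue (limma adjusted p = 0.0284), a call lost in 12 of 24 settings, including leaving out any 1 control array and *Htl[ACT]* array 1 or 2.

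A receptor too dim on average to be tested moved the other way. *Octalpha2R*, an octopamine receptor singled out after its values were seen, read 64.2, 68.0 and 64.9 on the *Htl[ACT]* arrays, 8.47, 14.5 and 9.19 on the *InR* arrays, and 11.4, 14.7 and 11.7 on the control arrays. Its *Htl[ACT]* arrays stood clear of all others and above the array medians, while the other arrays were dim. Its log2 difference from control in *Htl[ACT]* tissue, 2.39, is given as a description with no test, since the control signals lay below the array medians.

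Genes of other transmitter systems fell too. Of 7 genes that make or package acetylcholine, GABA, glutamate and histamine, together with the vesicular transporter gene *prt*, 6 were tested. All 6 were called lower in *Htl[ACT]* tissue, beside 19.2% of all rows, and 3 in *InR* tissue, beside 6.57%, with medians of -0.98 and -0.67. *VAChT*, the vesicular acetylcholine transporter, fell by 1.29 ± 0.15 in *Htl[ACT]* tissue (SE; limma adjusted p = 0.000277) and by 0.78 ± 0.15 in *InR* tissue (limma adjusted p = 0.00628). *Hdc*, histidine decarboxylase, fell by 1.08 ± 0.28 in *Htl[ACT]* tissue (limma adjusted p = 0.011) and by 1.27 ± 0.28 in *InR* tissue (limma adjusted p = 0.00967). Both *Hdc* calls were lost without control array 2 and *InR* array 2, arrays that are set apart by fat body signal. The others, *Gad1*, *ChAT*, *prt* and *VGAT*, fell by between 0.67 and 1.15 in *Htl[ACT]* tissue, and of these only *Gad1* was called in *InR* tissue, a call lost in 7 of 24 settings that include leaving out control array 2 or 3 or *InR* array 1 or 2.

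General neuron markers moved in the same direction. All 7 neuron markers with a probe set were lower in both comparisons, 6 called in *Htl[ACT]* tissue (median -0.88) and 2 in *InR* tissue (median -0.52). Over all rows, 19.2% were called lower in *Htl[ACT]* tissue and 6.57% in *InR* tissue. The summed signal of the neuron markers ran from 8492 to 10439 on the *Htl[ACT]* arrays, from 11305 to 12265 on the *InR* arrays and from 15791 to 16161 on the control arrays. *elav* fell by 0.81 in *Htl[ACT]* tissue and had a log2 fold change of -0.43 in *InR* tissue. Of 7 glia markers, 5 were called higher in *Htl[ACT]* tissue, where 13.0% of rows were called higher, and 3 in *InR* tissue, where 9.24% were. Their summed signal was 43426 to 54277 in *Htl[ACT]* tissue, 35257 to 37367 in *InR* tissue and 20587 to 23959 in control tissue. Of 5 neuroblast markers, 4 were called lower in *Htl[ACT]* tissue and 3 in *InR* tissue, beside the same 19.2% and 6.57% of all rows.

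**Figure D3:**
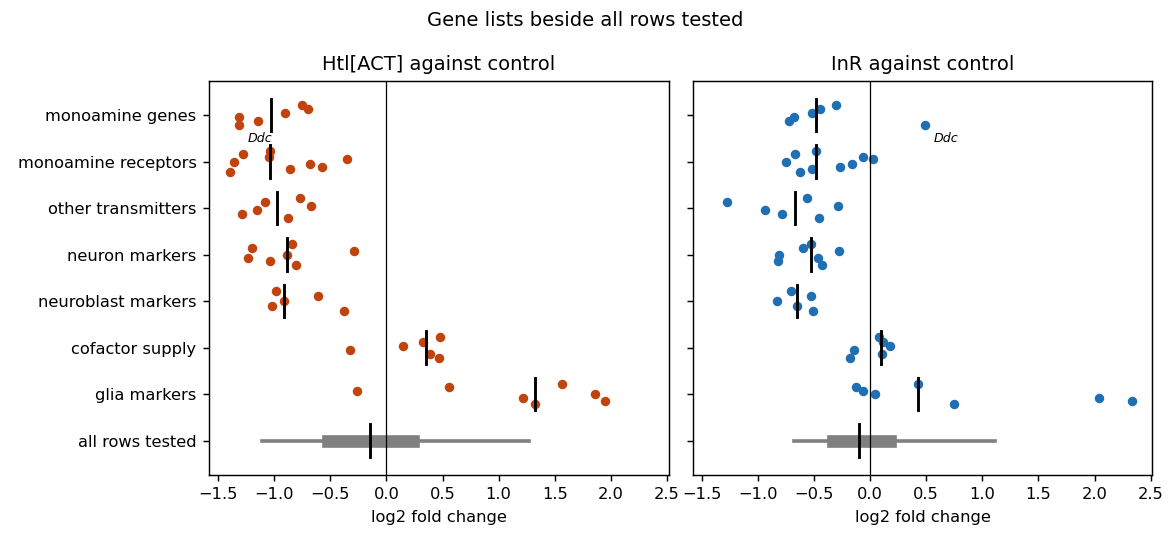
Log2 fold change (horizontal axis) of each tested gene, by list, for *Htl[ACT]* against control and *InR* against control, with a black bar at each list's median. The bottom row gives all 8552 rows, with the middle 50 percent as a thick bar and the 5th to 95th percentile as a thin one. The medians of monoamine genes and neuron markers are -1.02 and -0.88 in *Htl[ACT]* tissue, where *Ddc* and *DAT* lie below every neuron marker, and *Ddc* stands to the right of zero in *InR* tissue.

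Each gene was therefore also read relative to the neuron markers. With every array scaled so that the mean log2 signal of the 7 neuron markers was equal, a setting added after the data were seen, the median of all rows moved to 0.75 in *Htl[ACT]* tissue and 0.47 in *InR* tissue, so these values state a gene's place relative to neuron markers and not relative to all RNA. On this scale 0 of the 6 genes were called in *Htl[ACT]* tissue by limma, beside 0.444% of rows called lower, and none reached an unadjusted p of 0.05. The log2 values were -0.42 ± 0.24 for *Ddc*, -0.41 ± 0.23 for *DAT*, -0.24 ± 0.22 for *Vmat*, -0.01 ± 0.21 for *SerT*, 0.15 ± 0.24 for *Tbh* and 0.20 ± 0.24 for *Tdc2* (SE). The standard error of *Ddc* was 0.24 on this scale, against 0.16 on the deposited scale, and the 95% interval of *DAT* ran from -0.94 to 0.12.

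In *InR* tissue on the same scale, *Ddc* was the only one of the 6 called, higher by a log2 value of 1.05 ± 0.24 (SE; limma adjusted p = 0.00564), beside 26.9% of rows called higher. The other 5 genes lay between -0.16 and 0.26. Between *Htl[ACT]* and *InR* tissue *Ddc* was again the only one called, lower by -1.46 ± 0.24 (limma adjusted p = 0.00112), beside 1.65% of rows called lower. With 26.9% of rows called higher and a median of 0.47 over all rows in *InR* tissue, 1 higher call among the 6 genes says little about the set. In *Htl[ACT]* tissue *Ddc* was not called (-0.42 ± 0.24, SE), which does not show that it followed the neuron markers there.

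The related lists read differently on this scale as well. Over all rows, 0.444% were called lower and 58.4% higher in *Htl[ACT]* tissue on this scale, and 0.175% and 26.9% in *InR* tissue. With so few rows called lower, the absence of a lower call says little about a list. Of the 9 receptors, limma called 0 in *Htl[ACT]* and 0 in *InR* tissue, and 0 had an unadjusted p under 0.05 in either. Of the 6 other transmitter genes, 0 were called in either tissue, with 0 at an unadjusted p under 0.05 in *Htl[ACT]* tissue and 1 in *InR* tissue. Calls of a higher signal were made for 5 of the 6 cofactor and synthesis genes in *Htl[ACT]* tissue, beside 58.4% of all rows, and for 2 in *InR* tissue, beside 26.9%.

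**Figure D4:**
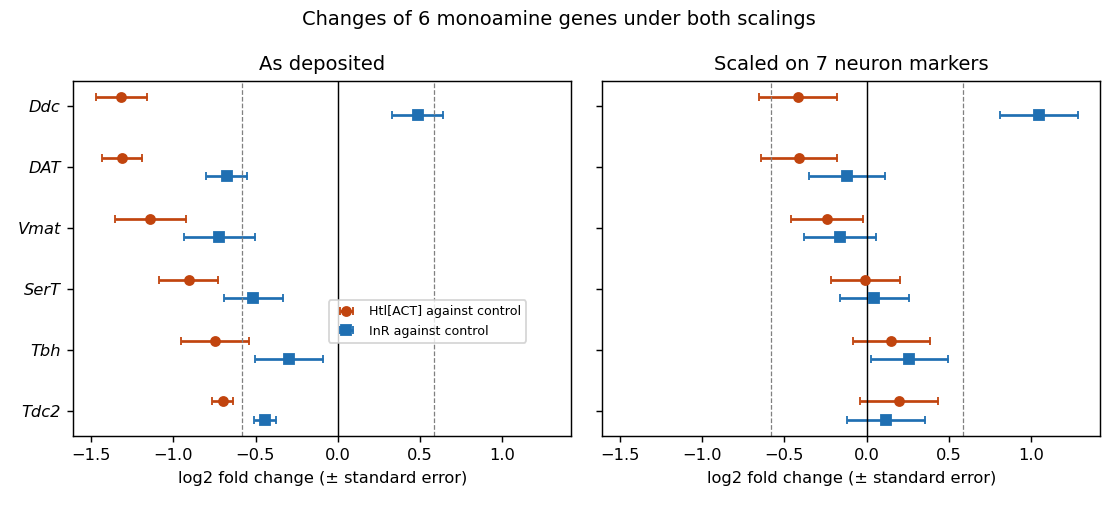
Log2 fold change ± standard error (horizontal axis) of the 6 tested genes against control for *Htl[ACT]* and *InR*, on the deposited scale and with arrays scaled on 7 neuron markers. Dashed lines mark the fold limit of 1.5. On the marker scale the values lie between -0.42 and 0.26 except *Ddc* in *InR* tissue, at 1.05.

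*Ddc* has a second role in the epidermis, where its dopamine is conjugated and oxidised to tan and darken the cuticle, so the genes of that branch were examined. Of 8 listed, 7 had a probe set and 5 were tested. *speck*, an acetyltransferase that acts on dopamine, read 439, 582 and 695 on the *Htl[ACT]* arrays, 855, 687 and 729 on the *InR* arrays, and 1296, 1214 and 1019 on the control arrays. Control arrays were above all others, as for *Vmat*. It fell by 1.06 ± 0.18 on the log2 scale in *Htl[ACT]* tissue (SE; limma adjusted p = 0.00135) and by 0.63 ± 0.18 in *InR* tissue (limma adjusted p = 0.0249). The *InR* call was lost with a replicate block on all 9 arrays (limma adjusted p = 0.0501) and made with it on the 6 arrays compared (limma adjusted p = 0.0149). It was also lost without control array 1, control array 2, *InR* array 2 or *InR* array 3.

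*e* (ebony), which couples beta-alanine to dopamine and in the CNS is known as a glial enzyme, read 247, 315 and 367 on the *Htl[ACT]* arrays, 182, 161 and 164 on the *InR* arrays, and 362, 274 and 295 on the control arrays. The *InR* arrays lay below all others, and the *Htl[ACT]* and control arrays overlapped. It fell by 0.87 ± 0.16 on the log2 scale in *InR* tissue (SE; limma adjusted p = 0.00486), while its value in *Htl[ACT]* tissue was -0.01 ± 0.16 (limma adjusted p = 0.964). The direct difference, *Htl[ACT]* against *InR*, was 0.86 ± 0.16 (limma adjusted p = 0.00712), so *e* was higher in *Htl[ACT]* tissue, where *Ddc* was lower. Scaled on neuron markers, *e* was not called in *InR* tissue (-0.31, limma adjusted p = 0.32), while the direct difference was still called (1.20, limma adjusted p = 0.00465). In *Htl[ACT]* tissue it was called higher on that scale (0.89, limma adjusted p = 0.00547). There the median of all rows was 0.75 and 58.4% of rows were called higher, so that call does not set *e* apart.

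*y* (yellow), needed for black pigment, was by far brightest on the *InR* arrays. Its signal was 92.3, 21.7 and 79.4 on the *Htl[ACT]* arrays, 1351, 1950 and 1954 on the *InR* arrays, and 22.6, 20.2 and 7.26 on the control arrays. It passed the brightness filter through its *InR* signals, and the control arrays were below their array medians. Because the *InR* signals let it into the tested rows and its control signals were this dim, its log2 differences from control, 6.86 in *InR* tissue and 1.86 in *Htl[ACT]* tissue, are given as a description with no test. *yellow-f*, not among the tested rows, read 62.2, 145 and 82.6 on the *InR* arrays and 11.2, 22.6 and 5.34 on the control arrays.

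Markers of several other tissues were also higher in *InR* tissue. Over all rows, 9.24% were called higher in *InR* tissue and 13.0% in *Htl[ACT]* tissue. Of 11 cuticle genes 4 had a probe set, with sums of 597 to 635 in *Htl[ACT]* tissue, 912 to 992 in *InR* tissue and 303 to 402 in control tissue. Nearly all of that signal was *Pcp*, a pupal cuticle gene, which was called higher in both *Htl[ACT]* (0.87) and *InR* tissue (1.55), while *Edg84A* stayed between 1.24 and 9.26. All 3 tracheal markers tested were called higher in *InR* tissue, with sums of 677 to 912 in *Htl[ACT]* tissue, 1880 to 2398 in *InR* tissue and 631 to 1410 in control tissue. Of 5 ring gland markers, 4 were called higher in *InR* tissue, with sums of 1200 to 1610 in *Htl[ACT]* tissue, 1964 to 3614 in *InR* tissue and 702 to 802 in control tissue. Among these markers, *dib* and *nvd* averaged 31.6 and 14.5 on the control arrays, under the lowest mean signal tested, 35.1. Both passed the brightness filter mainly through their *InR* signals, which averaged 95.8 and 121, so the ring gland count is a description only. Of 4 hemocyte markers 3 were tested and 1 was called higher in *InR* tissue, with sums of 186 to 434 in *Htl[ACT]* tissue, 639 to 1164 in *InR* tissue and 456 to 550 in control tissue. One of the tested markers, *He*, averaged 26.5 on the *Htl[ACT]* arrays, 155 on the *InR* arrays and 41.7 on the control arrays. It passed the brightness filter partly through its *InR* signals, so the hemocyte count is a description only. The 1 muscle marker tested was not called in *InR* tissue, at a log2 value of 0.017, and of 4 imaginal disc markers 1 was called higher there, with a median of 0.0096. The part of these tissues in the *Ddc* signal was not tested.

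**Figure D5:**
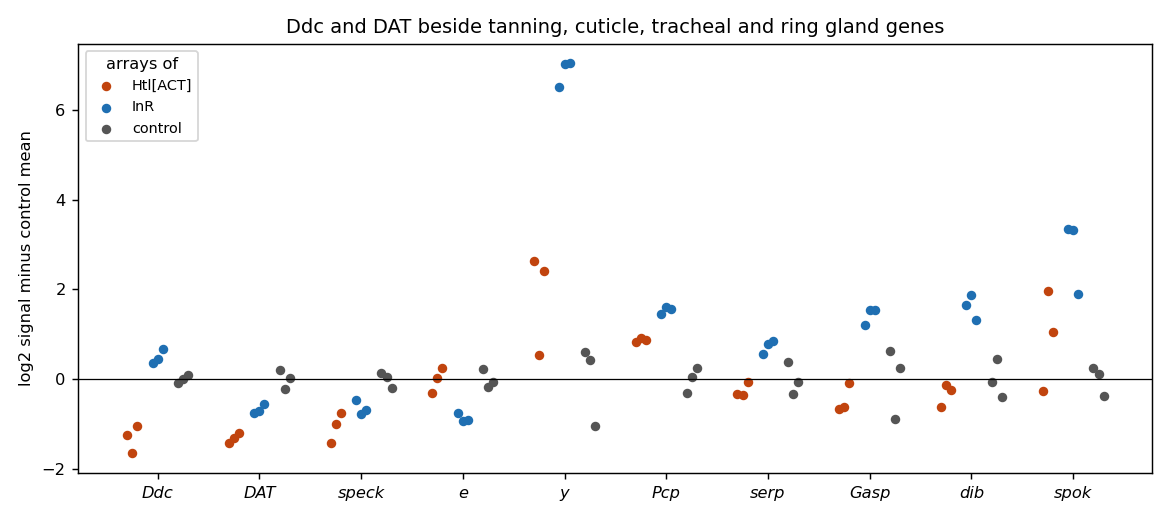
Log2 signal of each array minus the mean log2 signal of the control arrays (vertical axis) for *Ddc* and *DAT* beside tanning genes (*speck*, *e*, *y*), the cuticle gene *Pcp*, tracheal genes (*serp*, *Gasp*) and ring gland genes (*dib*, *spok*). On the *InR* arrays *Ddc* lies above zero with *y*, *Pcp* and the tracheal and ring gland genes, while *DAT*, *speck* and *e* lie below. *y* and *dib* passed the brightness filter through their *InR* signals.

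Fat body genes set some arrays apart. The sum of 3 fat body markers ran from 609 to 1011 on the *Htl[ACT]* arrays, from 842 to 18738 on the *InR* arrays and from 585 to 6944 on the control arrays, highest on *InR* arrays 2 and 3 and control array 2. Without control array 2 and *InR* array 2, *Ddc*, *Vmat*, *DAT*, *SerT* and *Tdc2* were still called lower in *Htl[ACT]* tissue and *Tbh* was not, and *DAT* was still called lower in *InR* tissue and *Vmat* was not. Without *InR* array 3 as well, where the lone *InR* array was assumed to vary like the other groups, limma called 0 members in *InR* tissue, 2 having an unadjusted p under 0.05. The direct *Ddc* call, lower in *Htl[ACT]*, was made under both exclusions.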

How the data were processed

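The authors dissected the CNS of pooled larvae in triplicate for each genotype, hybridised labelled cRNA to Affymetrix *Drosophila* Genome 2.0 arrays and computed MAS5 values in Affymetrix Expression Console. The deposited values are linear intensity signals, 1 per probe set, scaled by the authors so that every array has a trimmed mean of 500.0, and they carry no detection calls, so no gene was called absent and no bound was set. The 183 array control probe sets were left out, and 18769 were kept. A table of GEO's platform annotation gave 1 gene to 13647 of these, several to 402 and none to 4720. Each gene was read from its brightest probe set, giving 17104 rows, of which the brighter 50% by mean log2 signal (8552 rows, mean signal of at least 35.1) was tested. Log2 signals were fitted with limma 3.58.1 in R 4.3.3 over all 9 arrays as 3 groups, with Benjamini-Hochberg adjustment, an adjusted p of 0.05 and a fold limit of 1.5. The script was tested on simulated data.

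The genes and comparison lists (cofactor supply, cuticle tanning, receptors, other transmitters and cell markers) were chosen with earlier results of these data known. All 8 members were named, as were genes of these lists called in at least 1 comparison and, for each tested member, the 2 genes with the highest Pearson correlation over the arrays. Same-numbered *InR* and control arrays deviated together from their group means (r = 0.50, 0.37 and 0.23), so their numbers were taken from the data as pairing these arrays, whereas *Htl[ACT]* and control arrays did not (r = -0.04, -0.06 and 0.20). Alternatives were quantile normalization, median centring, other filters, a replicate block, a pseudocount of 7.96, fits on only the 6 arrays compared, limma's trend and robust options, Significance Analysis of Microarrays (SAM) with 20 permutations, no fold limit, other handling of probe sets and arrays left out. Scaling on neuron markers and the block on 6 arrays were added after the data were seen. Figures were drawn with matplotlib 3.10.9.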

Additional observations from a re-analysis of the deposited data

Results flagged for a closer look

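For 2 members and 4 genes of the related monoamine lists, the change in *Htl[ACT]* tissue and the change in *InR* tissue differed when set directly against each other (limma, Benjamini-Hochberg over 8552 rows, called at 1.5-fold). Over all rows, 5.43% were called higher and 6.45% lower in that comparison. *Ddc* differed most among the members, by a log2 value of -1.80 (adjusted p = 0.00019), with -1.32 in *Htl[ACT]* and 0.49 in *InR* tissue against control. *DAT* differed by -0.63 (adjusted p = 0.00828), with -1.31 in *Htl[ACT]* and -0.68 in *InR* tissue.

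Among the related genes, *e* differed by 0.86 (adjusted p = 0.00712). *y* differed by -4.99, a description only, since it passed the brightness filter through its *InR* signals. The receptors *5-HT7* and *5-HT1B* differed by -0.98 (adjusted p = 0.0246) and -0.61 (adjusted p = 0.0438), calls lost in 10 of 23 and 19 of 22 alternative settings. Groups of 3 arrays are too small for a test of single outlying arrays.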

How the results depend on the processing

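The deposited scaling bears on direction. In *Htl[ACT]* against control tissue 40.4% of all calls were higher, against 50.1% after quantile normalization and 59.7% after median centring, which moved the median of all rows from -0.15 to 0.02. In *InR* against control tissue the shares were 58.4%, 58.8% and 41.5%, and in *Htl[ACT]* against *InR* tissue 45.7%, 59.3% and 80.4%. The directions of the 6 members against control were kept under both scalings.

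With the replicate block 6 members were called in *Htl[ACT]* tissue, 2 in *InR* tissue and 2 between them, as without it, and it changed no member's call.

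Of the members called lower in *Htl[ACT]* tissue, main count 6, there were 2 among the brightest 33.3% of rows, where fewer genes were tested, and 0 after neuron marker scaling. Of the 2 called lower in *InR* tissue, there was 1 with no filter, among the brightest 33.3%, with probe sets averaged and without control 2 and *InR* 2, and 0 with SAM. Neuron marker scaling gave 1 call there, *Ddc*, which was higher. With no fold limit there were 4 calls in *InR* tissue, *Vmat*, *DAT* and *Tdc2* lower and *Ddc* higher. Of the 2 called between *Htl[ACT]* and *InR*, there was 1 with no filter, median centring, quantile normalization, neuron marker scaling, the brightest 33.3% and without control 2, *InR* 2 and *InR* 3. Leaving out 1 array gave 5 to 6, 1 to 2 and 1 to 2 calls in the 3 comparisons.

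Of the 20 other monoamine genes tested, 9 were called in *Htl[ACT]* tissue, 4 among the brightest 33.3% and 15 with no fold limit. Over all rows, 13.0% were called higher and 19.2% lower in *Htl[ACT]* tissue, and 9.24% and 6.57% in *InR* tissue. Between *Htl[ACT]* and *InR* tissue the shares were 5.43% and 6.45%. The main count of each comparison includes *y*, which passed the brightness filter through its *InR* signals. Neuron marker scaling gave 8 in *Htl[ACT]* tissue, all higher, where 58.4% of all rows were called higher on that scale. Of these 8, 1, *y*, was among the 9. In *InR* tissue 5 were called, 2 with no filter, the brightest 33.3%, SAM or without control 2 and *InR* 2, 3 with probe sets averaged, and 1 without *InR* 3 as well. Between *Htl[ACT]* and *InR* 4 were called, 2 with quantile normalization, SAM, neuron marker scaling or without control 2 and *InR* 2, 1 among the brightest 33.3% and 0 without *InR* 3 as well by limma, 6 having an unadjusted p under 0.05. Leaving out 1 array gave 7 to 9, 2 to 5 and 2 to 5 calls.

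Among the members, signs turned under neuron marker scaling for *SerT* in *InR* tissue (0.046), for *Tdc2* in *Htl[ACT]* (0.20) and *InR* tissue (0.12) and between them (0.080), and for *Tbh* in *Htl[ACT]* (0.15) and *InR* tissue (0.26). Between *Htl[ACT]* and *InR* they turned for *Tdc2* (0.033 by quantile normalization, 0.020 by median centring), *prt* (0.10 and 0.073), *Gad1* (0.057 by median centring, and -0.42 to 0.039 with 1 array left out, highest without *Htl[ACT]* 2) and *Dop2R* (0.29 with probe sets averaged). In *Htl[ACT]* tissue *e* turned (0.14 by quantile normalization, 0.16 by median centring, 0.11 without control 1 and 0.14 without *Htl[ACT]* 1, in a range of -0.14 to 0.14 with 1 array left out). In *InR* tissue *5-HT7* turned without control 3 (0.060) or *InR* 3 (0.0039), the lowest value being -0.19, and *VGAT* without control 2, *InR* 2 and *InR* 3 (0.046). None of these values was called. Of the 26 tested genes of the other lists, neuron marker scaling turned the sign of 10 in *Htl[ACT]* tissue, 10 in *InR* tissue and 6 between them. Of the 10 in *Htl[ACT]* tissue, 1 was then called (*e*, 0.89), where the median of all rows was 0.75. The cause of these sign changes was not tested.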

Other observations

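*DopEcR*, a receptor for dopamine and ecdysteroids, spread more among replicates than between genotypes. It read 168, 208 and 364 on the *Htl[ACT]* arrays, 194, 295 and 416 on the *InR* arrays, and 203, 362 and 565 on the control arrays, so that the arrays numbered 3 were highest in all 3 groups and those numbered 1 lowest. With a replicate block the standard error of its log2 fold change in *Htl[ACT]* tissue, -0.57, was 0.12, against 0.44 without the block, and the limma adjusted p was 0.00702 with the block and 0.304 without it. The change stayed under the fold limit of 1.5. *DopEcR* was singled out after its values were seen, so the smaller standard error and p with the block are descriptions only. Over all tested rows, same-numbered *Htl[ACT]* and control arrays did not deviate together (r = -0.04, -0.06 and 0.20).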
